A study of Mus musculus with 6 samples.

Results

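Antiviral genes that type I interferons switch on were followed in macrophages sorted from rejecting and treated mouse heart grafts. The set holds 36 genes: RNA and DNA sensors, transcription factors of the interferon response and the effectors they induce. A gene was measured where the deposited table held it on a probe set with exactly 1 gene symbol, and the brightest such probe set, by its mean over all 6 arrays, stood for the gene. In this way 33 of the 36 genes were measured, among 22180 genes in all. Oas1a and Dtx3l lay on probe sets that carry several symbols, and Ifi44 was not analysed here.

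Hearts of BALB/c donors had been grafted into C57BL/6 recipients in both groups, and on day 6 the macrophages in the graft were sorted by flow cytometry for Affymetrix arrays. In 1 group of 3 samples the hosts were given 5 mg/kg of mTORi-HDL on days 0, 2 and 5, an inhibitor of the mTOR kinase packed into particles of high-density lipoprotein. In the other group of 3 the hosts got no treatment and rejected the heart. The comparison asks how the treatment changes the macrophages that enter a graft. No group received the lipoprotein alone, so inhibitor and carrier cannot be told apart. The labels do not say whether a sample was 1 recipient or a pool, and p-values then measure only the spread between these samples. All levels below are RMA values on the log2 scale, on which 1 unit is a doubling, and every change is mTORi-HDL minus untreated. Where a gene is given a pair of changes, the first is with all 6 arrays and the second without the array mTORi-HDL 1, and an error after ± is the SE from limma.

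Type I interferons, the interferon-alpha family and interferon-beta, are released by cells that detect foreign or misplaced nucleic acid. They bind the receptor of Ifnar1 and Ifnar2, whose kinases Jak1 and Tyk2 phosphorylate Stat2. Stat2 and Irf9 belong to a complex that binds response elements in the promoters of antiviral genes and switches them on together. In macrophages the products sense viral RNA, stop its translation, degrade it or block viral entry and release, and a graft under rejection holds interferon-gamma from T and NK cells as well, which induces part of the same genes.

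The response element is built around repeated GAAA, and its plain form was searched as 2 copies of GAAA separated by any 2 bases, on either strand, in promoters reaching from 250 bases before to 50 bases from the start of each gene. Sequences are those of RefSeq, build GRCm38.p6, written 5′ to 3′ on the strand of the gene, with matches in capitals and each position counted to the first capital of the match. Of the 33 measured genes, 24 had a promoter there, and 13 of these 24 (54.2%) held a match, against 1079 of 27025 genes (3.99%) and 1131 of 32851 promoters (3.44%) overall. Matches on the same strand may overlap, and a match describes letters, not a site in use. The first 5 sequences belong to genes that stood above every untreated array on mTORi-HDL 2 and 3.
The Isg15 window lies at chr4:156200845-156200926, minus strand, with 3 overlapping matches that begin 78, 72 and 66 bases before the start.
Isg15: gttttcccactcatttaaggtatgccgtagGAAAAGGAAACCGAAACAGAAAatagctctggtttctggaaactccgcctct
The Ifit1 window lies at chr19:34640755-34640843, plus strand, with matches on the opposite strand that begin 104 and 85 bases before the start.
Ifit1: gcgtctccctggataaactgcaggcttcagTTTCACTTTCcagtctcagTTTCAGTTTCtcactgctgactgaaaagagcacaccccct
The Bst2 window lies at chr8:71537557-71537632, minus strand, with 2 overlapping matches that begin 130 and 124 bases before the start.
Bst2: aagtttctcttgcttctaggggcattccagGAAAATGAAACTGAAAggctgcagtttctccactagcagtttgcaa
The Ifitm3 window lies at chr7:141010695-141010772, minus strand, with matches that begin 2 and 19 bases after the start.
Ifitm3: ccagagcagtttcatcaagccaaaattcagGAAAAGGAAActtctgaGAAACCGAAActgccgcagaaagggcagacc
The Slfn5 window lies at chr11:82951917-82951986, plus strand, with 1 match that begins 155 bases before the start.
Slfn5: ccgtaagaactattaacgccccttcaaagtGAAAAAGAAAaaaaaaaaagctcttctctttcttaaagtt
The next 3 belong to genes that hold the same motif and whose groups overlapped both with and without mTORi-HDL 1.
The Ddx60 window lies at chr8:61928004-61928107, plus strand, with matches that begin 53 and 19 bases before the start.
Ddx60: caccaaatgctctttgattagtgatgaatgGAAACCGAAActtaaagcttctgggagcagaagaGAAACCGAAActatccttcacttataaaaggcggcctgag
The Rsad2 window lies at chr12:26456533-26456602, minus strand, with 1 match on the opposite strand that begins 120 bases before the start.
Rsad2: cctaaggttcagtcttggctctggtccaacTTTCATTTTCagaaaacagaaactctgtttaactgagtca
The Ifit3 window lies at chr19:34583343-34583446, plus strand, with matches on the opposite strand that begin 156 and 122 bases before the start.
Ifit3: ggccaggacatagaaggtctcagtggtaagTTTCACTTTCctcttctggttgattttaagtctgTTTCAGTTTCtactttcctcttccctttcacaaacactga

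The array mTORi-HDL 1 stood apart from the other 5, so results are given with and without it. Its values had an SD of 1.69 over probe sets, against 2.04 to 2.09 on the other arrays, and it correlated with them at r = 0.708 to 0.741, where the others reached 0.892 to 0.912. Its slope on the mean of the other arrays was 0.583, so bright genes read low and dim genes read high on it. For the rest, each against the others without mTORi-HDL 1, the slope was 0.965 to 1.02. Over all genes the median deviation of mTORi-HDL 1 from the untreated mean was 0.27, and over the 11090 genes at or above the median gene it was -0.32. Of the 33 interferon genes, 31 were at or above the median gene.

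The interferon genes as a set read lower than in untreated grafts on mTORi-HDL 1 and higher on mTORi-HDL 2 and 3. Their median deviation from the untreated mean was -0.88 on mTORi-HDL 1, 0.47 on mTORi-HDL 2 and 0.17 on mTORi-HDL 3, while over all genes it was 0.27, -0.03 and -0.03. The untreated arrays lay between -0.18 and 0.13. On mTORi-HDL 1, 22 of the 33 genes were below every untreated array, where 27.3% of all genes were, and 2 were above, where 49.8% were. For 21 of the 33 this array was the lowest of all 6, as it was for 23.4% of all genes. Since high readings are low on this array, the 31 members at or above the median gene are set beside the 11090 such genes. Of the 31, 21 were below every untreated array (48.6% of such genes), 2 above (28.8%), and 20 had their lowest value on mTORi-HDL 1 (42.9%). Each array was also set against a line over all genes on the mean of the other arrays, with mTORi-HDL 1 never part of that mean. Below the line lay 24 of 33 on mTORi-HDL 1, 8 on mTORi-HDL 2 and 11 on mTORi-HDL 3. The median distances were -0.40, 0.38 and 0.10. For mTORi-HDL 1 the mean includes mTORi-HDL 2 and 3, where the set read higher than in untreated grafts.

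**Figure D1:**
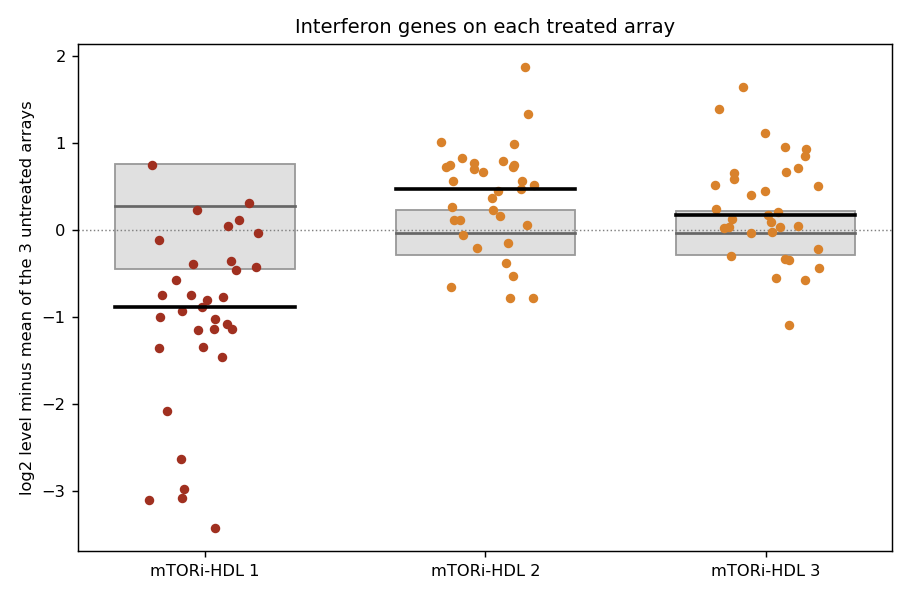
Each point is 1 of the 33 interferon genes on 1 mTORi-HDL array, as its log2 level minus the mean of the 3 untreated arrays. Black bars mark the median of the interferon genes (-0.88, 0.47 and 0.17), grey boxes and lines the quartiles and median of all 22180 genes (medians 0.27, -0.03 and -0.03), and most points on mTORi-HDL 1 lie below 0 while most on mTORi-HDL 2 lie above it.

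Over all 6 arrays no interferon gene passed the test for a change. In limma's test with Benjamini-Hochberg adjustment 0 of 33 passed an adjusted p of 0.05, as did 0 of 22180 genes (0%), and their adjusted p ran from 0.890 to 0.999. Without adjustment 1029 genes had a p under 0.05. Among the interferon genes 13 were higher and 20 lower in treated grafts, where 41.8% of all genes were lower, with a median change of -0.04 against 0.08 over all genes. Of the 31 at or above the median gene 20 were lower (58.4% of such genes), with a median of -0.18 against -0.12. At an unadjusted p under 0.05, 0 of 33 were higher (1.57% of all genes) and 1 was lower (3.07%), the exonuclease gene Isg20. Groups did not overlap for 1 gene that was higher, Ifitm3 (5.37% of all genes), and for 2 that were lower, Isg20 and Oas3 (5.53%).

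Without mTORi-HDL 1 most of the genes were higher in treated grafts, and again none passed the adjusted test. Of 33, 23 were higher, where 46.6% of all genes were, and the median change was 0.43 against -0.03 over all genes. Of the 31 at or above the median gene 21 were higher (47.2% of such genes), and 9 had both treated arrays above every untreated array (11.3%). At an unadjusted p under 0.05, 8 were higher (3.47% of all genes), namely Ifit1, Oasl2, Mx2, Isg15, Herc6, Parp14, Ifitm3 and Slfn5, and 1 was lower (3.51%), Isg20. Both remaining treated arrays lay above every untreated array for 10 genes (9.75% of all genes), these 8 with Oas2 and Bst2, and below for Isg20, Oas3 and Samd9l (12.5%). The adjusted p of the 33 genes ran from 0.187 to 0.997, with 0 of 33 and 0 of 22180 genes past 0.05 (0%), and 1547 genes had an unadjusted p under 0.05. These values rest on 2 treated arrays: with mTORi-HDL 3 left out as well, 2 interferon genes were higher at an unadjusted p under 0.05, with mTORi-HDL 2 left out 4, and with untreated 3 left out 5. The first and second of these leave 1 treated array, so their spread comes from the untreated arrays alone and the lone treated array is assumed to vary like them. The median change was 0.17 when mTORi-HDL 2 was left out too and to 0.23 when untreated 1 was. In a bulk sample fewer cells of a type and less RNA per cell cannot be told apart.

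**Figure D2:**
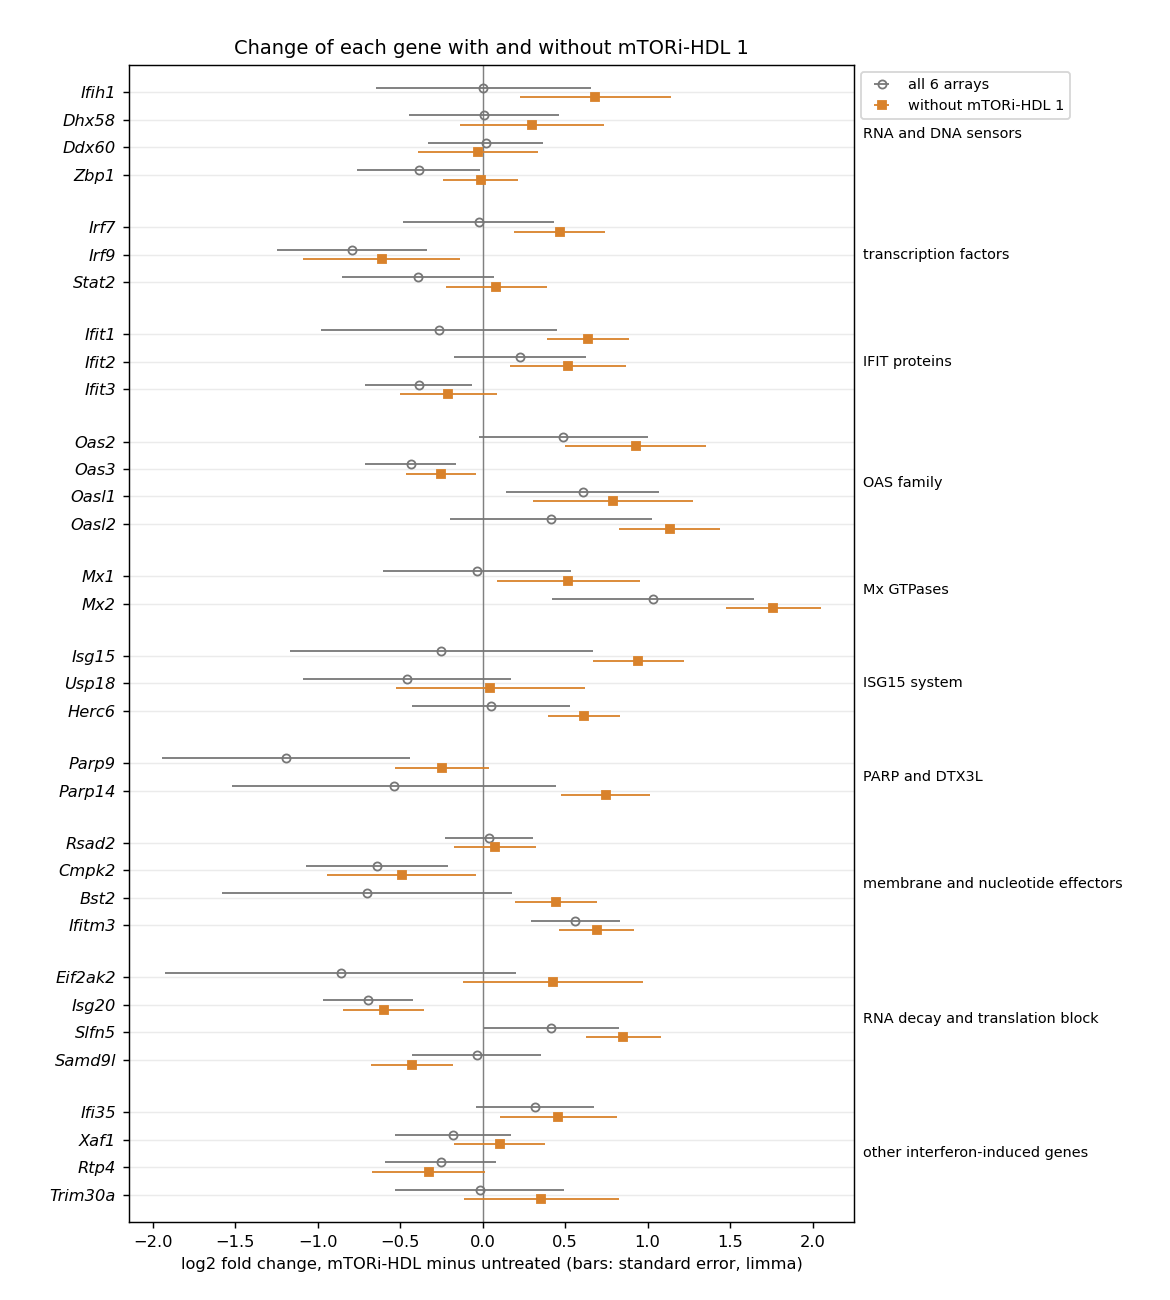
Log2 fold change of each of the 33 genes, mTORi-HDL minus untreated, over all 6 arrays (circles) and without mTORi-HDL 1 (squares), with bars of 1 standard error from limma. Circles spread around 0 with a median of -0.04, squares lie mostly to the right with a median of 0.43, and Mx2 reaches furthest right without mTORi-HDL 1, at 1.76.

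Among the sensors, Zbp1 triggers cell death on Z-form nucleic acid. Zbp1 read 9.35 on mTORi-HDL 1, 10.44 and 10.52 on mTORi-HDL 2 and 3, and 10.46, 10.30 and 10.72 on untreated 1, 2 and 3. Apart from mTORi-HDL 1 the groups overlapped, with a change of -0.39 ± 0.37 with all 6 arrays and -0.012 ± 0.23 without mTORi-HDL 1. Ifih1 read 5.50 on mTORi-HDL 1, 7.37 and 7.70 on mTORi-HDL 2 and 3, and 5.94, 7.48 and 7.14 on untreated 1, 2 and 3. Ifih1 encodes the MDA5 helicase, which senses long double-stranded RNA, and untreated 1 and mTORi-HDL 1 were both low while the other 4 arrays lay close together. Its change was 0.0045 ± 0.65 with all 6 arrays and 0.68 ± 0.46 without mTORi-HDL 1. Dhx58 read 4.92 on mTORi-HDL 1, 6.06 and 5.54 on mTORi-HDL 2 and 3, and 4.72, 6.16 and 5.61 on untreated 1, 2 and 3. Dhx58 encodes LGP2, a regulator of the RNA helicases, and its lowest array was untreated, with changes of 0.0090 and 0.30. Ddx60, a helicase linked to RNA sensing, lay between 3.96 and 5.04 on all 6 arrays, both of these untreated, with changes of 0.020 and -0.028, and its promoter, printed above, holds 2 matches.

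The 3 transcription factor genes were all lower with all 6 arrays, and without mTORi-HDL 1 only Irf9 was. Irf7 read 5.73 on mTORi-HDL 1, 7.46 and 6.94 on mTORi-HDL 2 and 3, and 6.43, 6.81 and 6.95 on untreated 1, 2 and 3. Irf7 amplifies interferon-alpha production, and mTORi-HDL 2 was highest and mTORi-HDL 1 lowest, with changes of -0.022 ± 0.46 with all 6 arrays and 0.47 ± 0.27 without mTORi-HDL 1. Irf9 read 4.43 on mTORi-HDL 1, 4.79 and 5.14 on mTORi-HDL 2 and 3, and 6.53, 4.93 and 5.27 on untreated 1, 2 and 3. Irf9 is the DNA-binding subunit of the interferon complex, and untreated 1 stood well above the other arrays, which overlapped. Its change was -0.79 ± 0.45 with all 6 arrays and -0.61 ± 0.47 without mTORi-HDL 1. Stat2 read 4.86 on mTORi-HDL 1, 6.32 and 6.26 on mTORi-HDL 2 and 3, and 5.68, 6.42 and 6.52 on untreated 1, 2 and 3. Stat2, the subunit that activates transcription in that complex, was low on mTORi-HDL 1 and on untreated 1 and level on the other arrays, with changes of -0.39 and 0.084.

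The IFIT proteins bind foreign RNA and stop its translation, and their genes are neighbours with different orders of arrays. Ifit1 read 4.28 on mTORi-HDL 1, 6.93 and 7.07 on mTORi-HDL 2 and 3, and 6.07, 6.62 and 6.39 on untreated 1, 2 and 3. Ifit1 was highest on mTORi-HDL 2 and 3 and lowest on mTORi-HDL 1, so the groups overlapped only through that array. Its change was -0.27 ± 0.72 with all 6 arrays and 0.64 ± 0.25 without mTORi-HDL 1 (SE; limma, adjusted p = 0.945 and 0.680). Ifit2 read 4.37 on mTORi-HDL 1, 5.52 and 4.96 on mTORi-HDL 2 and 3, and 5.28, 4.61 and 4.28 on untreated 1, 2 and 3. Ifit2 had overlapping groups, with changes of 0.23 and 0.52. Ifit3 read 5.24 on mTORi-HDL 1, 5.60 and 5.95 on mTORi-HDL 2 and 3, and 5.54, 6.25 and 6.17 on untreated 1, 2 and 3. Ifit3 was no higher on any treated array than on untreated 2 and 3, with changes of -0.39 and -0.21. Its promoter, like that of Ifit1, holds 2 matches.

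Of the 4 measured OAS genes, 3 were higher in treated grafts and Oas3 was lower, with and without mTORi-HDL 1. Oas2 and Oas3 make the oligoadenylates that activate an RNA-degrading enzyme, while Oasl1 and Oasl2 are relatives that carry ubiquitin-like domains. Oasl2 read 5.11 on mTORi-HDL 1, 7.48 and 7.07 on mTORi-HDL 2 and 3, and 5.88, 6.62 and 5.93 on untreated 1, 2 and 3. Oasl2 was highest on mTORi-HDL 2 and 3, above every untreated array, and lowest on mTORi-HDL 1. The change was 0.41 ± 0.61 with all 6 arrays and 1.13 ± 0.31 without mTORi-HDL 1 (SE; limma, adjusted p = 0.904 and 0.446). Oas2 read 4.40 on mTORi-HDL 1, 5.26 and 6.18 on mTORi-HDL 2 and 3, and 5.11, 5.15 and 4.10 on untreated 1, 2 and 3. Oas2 was above the untreated arrays on mTORi-HDL 2 and 3, on mTORi-HDL 2 by a small margin, and the change was 0.49 ± 0.51 with all 6 arrays and 0.93 ± 0.43 without mTORi-HDL 1. Oasl1 read 4.96 on mTORi-HDL 1, 5.72 and 5.32 on mTORi-HDL 2 and 3, and 3.83, 5.55 and 4.79 on untreated 1, 2 and 3. Oasl1, which in the mouse restrains Irf7, had the widest untreated range of the family and overlapping groups, with changes of 0.61 and 0.79. Oas3 read 4.38 on mTORi-HDL 1, 4.98 and 4.89 on mTORi-HDL 2 and 3, and 5.04, 5.29 and 5.24 on untreated 1, 2 and 3. Oas3 was lower on all 3 treated arrays than on every untreated array, and the change was -0.44 ± 0.28 with all 6 arrays and -0.25 ± 0.21 without mTORi-HDL 1 (SE; limma, adjusted p = 0.890 and 0.898).

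Mx2 had the highest fold change of the 33 genes, with and without mTORi-HDL 1. The Mx proteins are large GTPases that trap viral particles, and many inbred mouse strains, C57BL/6 among them, carry defective Mx genes. Mx2 read 2.79 on mTORi-HDL 1, 5.09 and 4.86 on mTORi-HDL 2 and 3, and 3.21, 3.62 and 2.82 on untreated 1, 2 and 3. Mx2 was lower on mTORi-HDL 1 and on all 3 untreated arrays than on mTORi-HDL 2 and 3. It was 1 of the 2 members below the median gene. Its untreated readings lay below the medians over all genes on untreated 1, 2 and 3 (4.19, 4.03 and 4.11), so its fold change starts from dim readings. The change was 1.03 ± 0.61 with all 6 arrays and 1.76 ± 0.29 without mTORi-HDL 1 (SE; limma, adjusted p = 0.890 and 0.187), with a 95% interval of 1.07 to 2.45 in the second case. Mx1 read 3.41 on mTORi-HDL 1, 5.57 and 4.57 on mTORi-HDL 2 and 3, and 4.04, 4.42 and 5.19 on untreated 1, 2 and 3. For Mx1 the groups overlapped, untreated 3 lay above mTORi-HDL 3, and the changes were -0.035 and 0.52.

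Isg15, a ubiquitin-like protein that is attached to other proteins, had one of the widest spreads among the treated arrays. Isg15 read 4.34 on mTORi-HDL 1, 7.75 and 8.09 on mTORi-HDL 2 and 3, and 6.59, 7.16 and 7.18 on untreated 1, 2 and 3. mTORi-HDL 2 and 3 were the highest arrays and mTORi-HDL 1 the lowest by a wide margin. The change was -0.25 ± 0.92 with all 6 arrays and 0.94 ± 0.28 without mTORi-HDL 1 (SE; limma, adjusted p = 0.962 and 0.491), with a 95% interval of 0.29 to 1.60 in the second case. Herc6 read 5.79 on mTORi-HDL 1, 7.59 and 7.37 on mTORi-HDL 2 and 3, and 6.72, 6.95 and 6.91 on untreated 1, 2 and 3. Herc6, the ligase that attaches Isg15 in the mouse, was likewise highest on mTORi-HDL 2 and 3 and lowest on mTORi-HDL 1, with a very narrow untreated range and a change of 0.050 ± 0.48 with all 6 arrays and 0.61 ± 0.22 without mTORi-HDL 1 (SE; limma, adjusted p = 0.986 and 0.611). Usp18 read 5.38 on mTORi-HDL 1, 7.50 and 6.26 on mTORi-HDL 2 and 3, and 5.88, 7.03 and 7.60 on untreated 1, 2 and 3. Usp18 removes Isg15 and dampens the interferon receptor, and its groups overlapped with mTORi-HDL 2 and untreated 3 highest, with changes of -0.46 and 0.045.

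The ADP-ribosyltransferases Parp14 and Parp9 read far lower on mTORi-HDL 1 than on the other 5 arrays. Parp14 read 5.004 on mTORi-HDL 1, 8.94 and 8.77 on mTORi-HDL 2 and 3, and 7.98, 8.50 and 7.84 on untreated 1, 2 and 3. Parp14, which modifies proteins in interferon and interleukin signalling, was highest on mTORi-HDL 2 and 3, and the change was -0.54 ± 0.98 with all 6 arrays and 0.75 ± 0.27 without mTORi-HDL 1 (SE; limma, adjusted p = 0.918 and 0.621). Parp9 read 5.10 on mTORi-HDL 1, 8.04 and 7.84 on mTORi-HDL 2 and 3, and 8.36, 7.75 and 8.45 on untreated 1, 2 and 3. Parp9, the partner of Dtx3l, overlapped between groups apart from mTORi-HDL 1 and was highest on untreated arrays, with changes of -1.19 ± 0.75 with all 6 arrays and -0.25 ± 0.28 without mTORi-HDL 1. A second probe set carries both Dtx3l and Parp9 and was not used. This one read 5.96, 7.66 and 7.56 on mTORi-HDL 1, 2 and 3. On untreated 1, 2 and 3 it read 7.09, 7.24 and 7.96, so mTORi-HDL 2 and 3 lay within the untreated range.

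Ifitm3, which blocks the entry of enveloped viruses, was the only one of the 33 genes above the untreated range on all 3 treated arrays. Ifitm3 read 11.34 on mTORi-HDL 1, 11.74 and 11.70 on mTORi-HDL 2 and 3, and 11.20, 11.09 and 10.80 on untreated 1, 2 and 3. The groups were closest at mTORi-HDL 1 and untreated 1. The change was 0.56 ± 0.27 with all 6 arrays and 0.69 ± 0.23 without mTORi-HDL 1 (SE; limma, adjusted p = 0.890 and 0.562). Bst2 read 5.66 on mTORi-HDL 1, 9.01 and 9.16 on mTORi-HDL 2 and 3, and 8.44, 8.53 and 8.96 on untreated 1, 2 and 3. Bst2, the tetherin that holds budding virus at the cell surface, was highest on mTORi-HDL 2 and 3 by a small margin and far lower on mTORi-HDL 1, with a change of -0.70 ± 0.88 with all 6 arrays and 0.44 ± 0.25 without mTORi-HDL 1 (SE; limma, adjusted p = 0.897 and 0.816). Rsad2 read 3.95 on mTORi-HDL 1, 4.04 and 4.08 on mTORi-HDL 2 and 3, and 4.27, 3.997 and 3.69 on untreated 1, 2 and 3. Rsad2 encodes viperin, which makes a chain-terminating nucleotide, and all 6 values lay close together, with overlapping groups and changes of 0.037 and 0.075. Cmpk2 read 4.66 on mTORi-HDL 1, 5.71 and 4.51 on mTORi-HDL 2 and 3, and 5.02, 6.10 and 5.68 on untreated 1, 2 and 3. Cmpk2, a mitochondrial nucleotide kinase encoded beside Rsad2, had overlapping groups with the lowest array among the treated ones, with changes of -0.64 and -0.49.

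Isg20, an exonuclease that degrades RNA, was the 1 member with an unadjusted p under 0.05 both over all 6 arrays and without mTORi-HDL 1, and was lower in treated grafts. Isg20 read 5.94 on mTORi-HDL 1, 6.17 and 6.27 on mTORi-HDL 2 and 3, and 6.65, 7.14 and 6.66 on untreated 1, 2 and 3. All 3 treated arrays were below every untreated array, and the treated arrays were close together. The change was -0.69 ± 0.27 with all 6 arrays and -0.60 ± 0.25 without mTORi-HDL 1 (SE; limma, adjusted p = 0.890 and 0.703). Its unadjusted p of 0.037 over all 6 arrays was no longer under 0.05 when mTORi-HDL 3 or any 1 untreated array was left out. Slfn5 read 3.99 on mTORi-HDL 1, 5.20 and 5.40 on mTORi-HDL 2 and 3, and 4.55, 4.56 and 4.23 on untreated 1, 2 and 3. Slfn5, a Schlafen family member, was above every untreated array on mTORi-HDL 2 and 3 and below on mTORi-HDL 1, with a change of 0.42 ± 0.41 with all 6 arrays and 0.85 ± 0.23 without mTORi-HDL 1 (SE; limma, adjusted p = 0.890 and 0.444). Another probe set carries Slfn5 together with its antisense gene and was not used. This other probe set read 5.04, 4.597 and 4.87 on mTORi-HDL 1, 2 and 3. On untreated 1, 2 and 3 it read 4.91, 4.29 and 4.84. Here mTORi-HDL 1 was the highest array, and mTORi-HDL 2 and 3 lay within the untreated range. Eif2ak2 read 2.84 on mTORi-HDL 1, 6.72 and 6.67 on mTORi-HDL 2 and 3, and 5.20, 7.22 and 6.40 on untreated 1, 2 and 3. Eif2ak2 encodes PKR, which stops translation on sensing double-stranded RNA, and outside mTORi-HDL 1 its groups overlapped over a wide untreated range, with changes of -0.86 ± 1.06 with all 6 arrays and 0.43 ± 0.55 without mTORi-HDL 1. Samd9l read 7.52 on mTORi-HDL 1, 6.25 and 6.44 on mTORi-HDL 2 and 3, and 6.75, 6.51 and 7.06 on untreated 1, 2 and 3. Samd9l, an antiviral factor that restrains translation, was highest on mTORi-HDL 1 and lowest on mTORi-HDL 2 and 3, with changes of -0.036 ± 0.39 with all 6 arrays and -0.43 ± 0.25 without mTORi-HDL 1.

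Of the other 4 members, none had groups apart. Ifi35 read 7.35 on mTORi-HDL 1, 8.06 and 7.48 on mTORi-HDL 2 and 3, and 7.58, 6.72 and 7.63 on untreated 1, 2 and 3. Ifi35, an interferon-induced leucine zipper protein, had changes of 0.32 and 0.46, but its second probe set read 8.78 on untreated 1 and 5.77 and 6.52 on untreated 2 and 3, and the mean of both probe sets gave -0.21 over all arrays. Xaf1 read 7.21 on mTORi-HDL 1, 8.19 and 7.94 on mTORi-HDL 2 and 3, and 8.24, 8.09 and 7.56 on untreated 1, 2 and 3. Xaf1, which promotes cell death, overlapped between groups with changes of -0.18 and 0.11. Rtp4 read 7.43 on mTORi-HDL 1, 6.75 and 7.67 on mTORi-HDL 2 and 3, and 7.36, 7.35 and 7.90 on untreated 1, 2 and 3. Rtp4, a chaperone of membrane receptors, had its lowest array at mTORi-HDL 2 and changes of -0.25 and -0.33. Trim30a read 4.83 on mTORi-HDL 1, 5.86 and 6.05 on mTORi-HDL 2 and 3, and 4.73, 5.64 and 6.42 on untreated 1, 2 and 3. Trim30a, which in the mouse dampens Toll-like receptor signalling, had its lowest and highest arrays both untreated, with changes of -0.018 and 0.36.

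**Figure D3:**
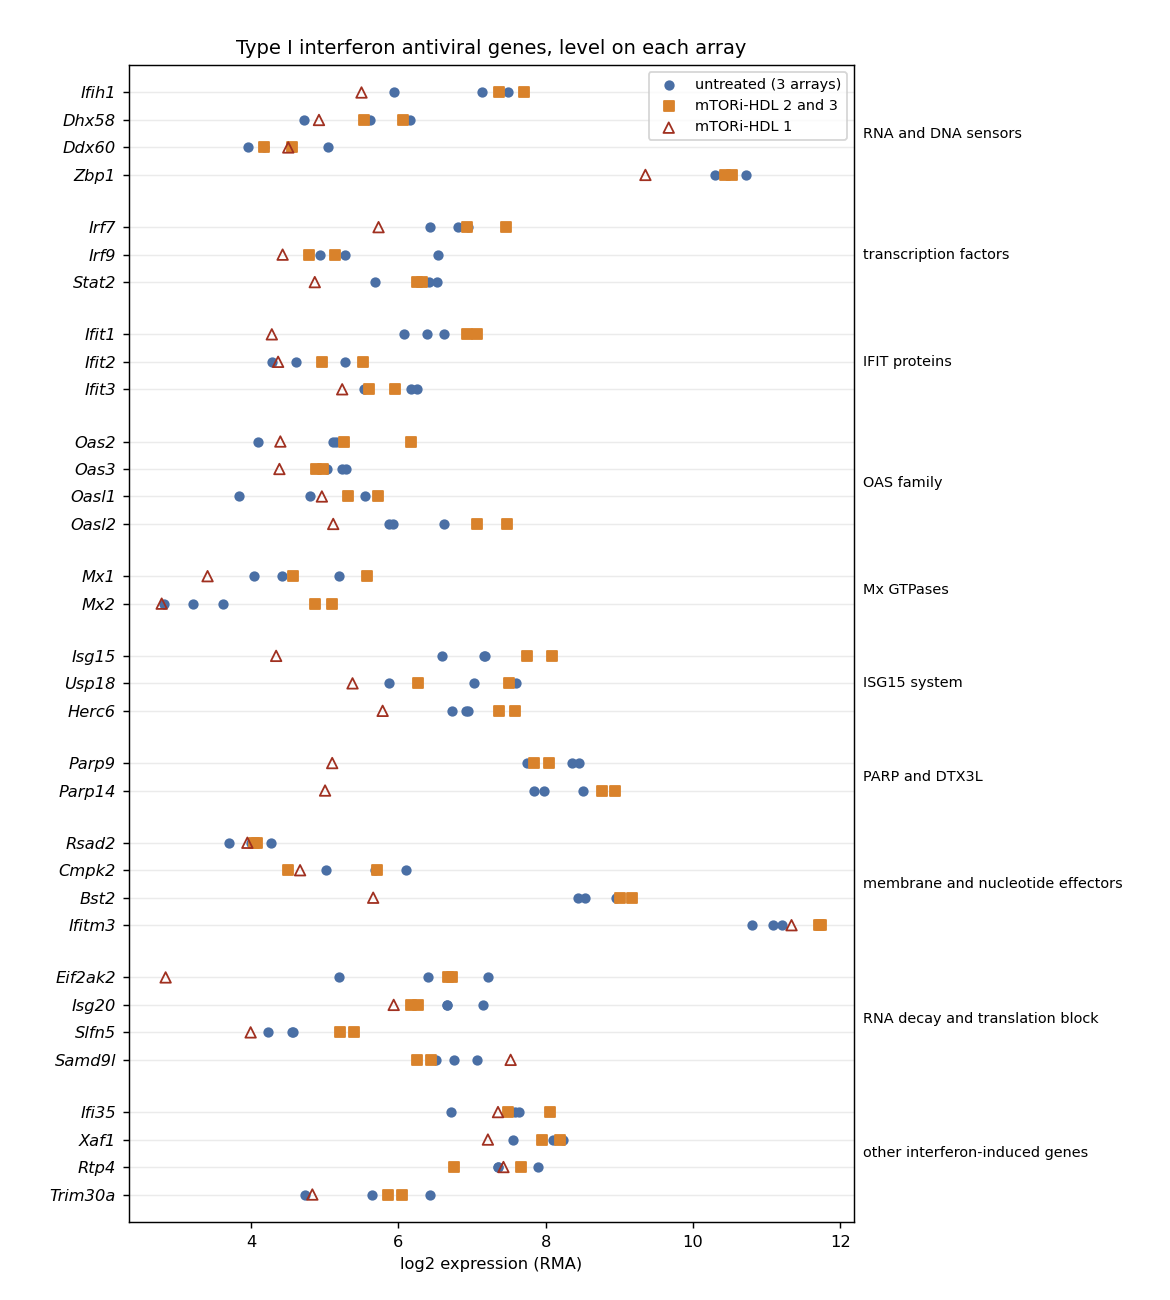
RMA log2 level of each of the 33 genes on each of the 6 arrays, grouped by role. Circles are the 3 untreated arrays, squares mTORi-HDL 2 and 3, and triangles mTORi-HDL 1, which is the lowest of the 6 for 21 genes, with Isg15, Bst2, Parp9 and Parp14 far to the left of the other arrays and Samd9l to their right.

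The treated arrays differed among themselves more than the untreated ones for 24 of 33 members by SD, a share close to that of all genes (72.5%). Without mTORi-HDL 1 the 2 treated arrays differed by a median of 0.25, and 19 of 33 genes were higher on mTORi-HDL 2 than on mTORi-HDL 3. Summed over the 33 genes on the linear scale, the level was 4700 on mTORi-HDL 1, 8670 to 8880 on mTORi-HDL 2 and 3 and 6610 to 6930 on the untreated arrays, a sum carried mostly by the probe sets with the highest readings, those of Ifitm3 and Zbp1.

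The motif of the interferon response element was found in members of either pattern. Of the 10 genes above every untreated array on mTORi-HDL 2 and 3, 7 had a promoter in RefSeq and 5 held a match (the 5 printed first). Of the other 23 genes 17 had a promoter and 8 held a match, Ddx60, Rsad2, Ifit3 and Oas3 among them. Oas3, lower on every treated array than on any untreated one, held 1 match that begins 75 bases before the start. The gamma-activated site, searched on both strands as TTC, any 3 bases and GAA, was in 6 of 24 measured genes (25%) and 2582 of 27025 genes overall (9.55%). No promoter entry was found for Dhx58, Zbp1, Oas2, Mx1, Mx2, Usp18, Parp9, Parp14 and Rtp4.

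The ligands read higher on mTORi-HDL 1 and about level on the other treated arrays. Of 18 interferon-alpha, interferon-beta and related genes 16 were measured: 13 were higher and 3 lower over all 6 arrays, with a median change of 0.31, and without mTORi-HDL 1 8 were higher, with a median of 0.02. The interferon-alpha genes are near copies of each other, so signal may be shared between their probe sets. Their median deviation was 0.79 on mTORi-HDL 1, and 0.53 against the line on the other arrays, and 6 of the 16 were at or above the median gene. Ifna1 read 6.80 on mTORi-HDL 1, 6.15 and 6.33 on mTORi-HDL 2 and 3, and 5.73, 5.31 and 5.71 on untreated 1, 2 and 3. All 3 treated arrays were above the untreated ones for this interferon-alpha gene, with a change of 0.84 ± 0.29 with all 6 arrays and 0.66 ± 0.24 without mTORi-HDL 1 (SE; limma, adjusted p = 0.890 and 0.621). It was the 1 ligand of 16 with an unadjusted p under 0.05 over all 6 arrays. At that p 1.57% of all genes were higher and 3.07% lower.

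Genes of the receptor and its signalling were led by Socs3, an inhibitor that cytokine receptors induce through Stat3. Socs3 read 9.94 on mTORi-HDL 1, 10.03 and 9.50 on mTORi-HDL 2 and 3, and 8.08, 9.01 and 8.38 on untreated 1, 2 and 3. The 3 treated arrays were above the 3 untreated ones, with a change of 1.33 ± 0.33 with all 6 arrays and 1.27 ± 0.34 without mTORi-HDL 1 (SE; limma, adjusted p = 0.789 and 0.442). Of 8 measured genes of 9, 4 were higher and 4 lower over all 6 arrays, with a median of -0.17, and 7 were higher without mTORi-HDL 1, with a median of 0.54. The kinase gene Jak1 was the exception and lower on every treated array: Jak1 read 5.64 on mTORi-HDL 1, 9.42 and 9.21 on mTORi-HDL 2 and 3, and 9.73, 9.84 and 9.77 on untreated 1, 2 and 3. Over all 6 arrays Socs3 alone was higher at an unadjusted p under 0.05 (1.57% of all genes), and 0 were lower (3.07%). Without mTORi-HDL 1, Socs3 and the receptor chain Ifnar2 were higher at that p (3.47%) and 0 lower (3.51%). Ifnar2, named after its values were seen, had changes of 0.16 and 1.01.

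Of 17 genes that sense nucleic acids or induce interferon, 15 were measured. Over all 6 arrays 4 were higher and 11 lower, with a median of -0.43, and without mTORi-HDL 1 8 were higher, with a median of 0.13. Ddx58 read 5.21 on mTORi-HDL 1, 6.20 and 6.35 on mTORi-HDL 2 and 3, and 6.93, 6.53 and 6.93 on untreated 1, 2 and 3. Ddx58 encodes RIG-I, the sensor of short viral RNA, and all 3 treated arrays were below the untreated ones, with a change of -0.87 ± 0.37 with all 6 arrays and -0.52 ± 0.24 without mTORi-HDL 1 (SE; limma, adjusted p = 0.890 and 0.745). It was the 1 gene of this list with an unadjusted p under 0.05 over all 6 arrays, and Irf3, Mavs and Tbk1, which relay its signal, had changes of -1.06, -0.69 and -1.14 with all 6 arrays and -0.63, -0.67 and -0.11 without mTORi-HDL 1. Without that array 2 genes of the list were higher at an unadjusted p under 0.05 (3.47% of all genes) and 0 lower (3.51%). Both were named after their values were seen. Tlr3 read 3.40 on mTORi-HDL 1, 7.22 and 6.12 on mTORi-HDL 2 and 3, and 5.35, 5.03 and 3.66 on untreated 1, 2 and 3. Tlr3, a receptor for double-stranded RNA in endosomes, was above every untreated array on mTORi-HDL 2 and 3, with a change of 0.90 ± 0.94 with all 6 arrays and 1.99 ± 0.56 without mTORi-HDL 1 (SE; limma, adjusted p = 0.890 and 0.472). The other was the transcription factor Irf1, with changes of 0.094 and 0.96.

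Of 74 other genes that type I interferon induces, 63 were measured. Over all 6 arrays 6 were higher in treated grafts at an unadjusted p under 0.05 (1.57% of all genes) and 0 lower (3.07%). Over the list 19 were higher and 44 lower (41.8% of all genes), with a median of -0.38. Groups did not overlap for 7 that were higher (5.37% of all genes) and 5 that were lower (5.53%). Ifitm2 read 11.60 on mTORi-HDL 1, 10.98 and 11.25 on mTORi-HDL 2 and 3, and 9.95, 10.11 and 10.08 on untreated 1, 2 and 3. Ifitm2, a neighbour and relative of Ifitm3, had treated arrays all above the untreated ones, with a change of 1.23 ± 0.27 with all 6 arrays and 1.07 ± 0.22 without mTORi-HDL 1 (SE; limma, adjusted p = 0.696 and 0.293). Ifi204 read 9.33 on mTORi-HDL 1, 10.09 and 10.07 on mTORi-HDL 2 and 3, and 8.19, 8.88 and 8.43 on untreated 1, 2 and 3. Ifi204, a DNA sensor of the mouse, also had groups apart, with a change of 1.33 ± 0.33 with all 6 arrays and 1.58 ± 0.27 without mTORi-HDL 1 (SE; limma, adjusted p = 0.799 and 0.204). Cxcl10 read 10.41 on mTORi-HDL 1, 9.74 and 9.60 on mTORi-HDL 2 and 3, and 8.85, 9.28 and 8.56 on untreated 1, 2 and 3. Cxcl10, a chemokine that draws T cells and is induced by interferon-gamma as well, had groups apart and a change of 1.02 ± 0.34 with all 6 arrays and 0.77 ± 0.27 without mTORi-HDL 1 (SE; limma, adjusted p = 0.890 and 0.611). The monocyte-attracting chemokine Ccl12 and the antibody receptor Fcgr1, which is also a macrophage marker, had changes of 1.83 and 1.84 with all 6 arrays and 1.52 and 1.99 without mTORi-HDL 1, with groups apart. Ifitm1 had changes of 1.35 and 1.94, with groups that overlapped through mTORi-HDL 1. Without mTORi-HDL 1, 39 of 63 were higher (46.6% of all genes), and the median was 0.16. At an unadjusted p under 0.05, 13 were then higher (3.47% of all genes) and 1 lower (3.51%). The latter was the RNA-editing enzyme Adar, named after its values were seen.

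Genes tied to interferon-gamma read low on mTORi-HDL 1 and high on the other treated arrays. Of 15 listed, 12 were measured: 5 were higher and 7 lower over all 6 arrays, with a median of -0.29, and 9 were higher without mTORi-HDL 1, with a median of 0.60. Their median deviation was -1.74 on mTORi-HDL 1 and 0.54 and 0.59 on mTORi-HDL 2 and 3. Of the 12, 11 were at or above the median gene, and bright genes read low on mTORi-HDL 1. Against the line on the other arrays their median distance was -0.88 on mTORi-HDL 1, with 8 below it, and 0.35 and 0.57 on mTORi-HDL 2 and 3. Cxcl9 read 11.85 on mTORi-HDL 1, 12.48 and 12.52 on mTORi-HDL 2 and 3, and 11.59, 11.72 and 11.38 on untreated 1, 2 and 3. Cxcl9, a chemokine that interferon-gamma induces, was higher on all 3 treated arrays than on every untreated one, with a change of 0.72 ± 0.29 with all 6 arrays and 0.94 ± 0.22 without mTORi-HDL 1 (SE; limma, adjusted p = 0.890 and 0.378). Ifng read 6.20 on mTORi-HDL 1, 9.25 and 8.83 on mTORi-HDL 2 and 3, and 9.29, 9.98 and 9.53 on untreated 1, 2 and 3. Ifng, the gene of interferon-gamma itself, was lower on all 3 treated arrays, with a change of -1.50 ± 0.75 with all 6 arrays and -0.55 ± 0.29 without mTORi-HDL 1 (SE; limma, adjusted p = 0.890 and 0.786).

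**Figure D4:**
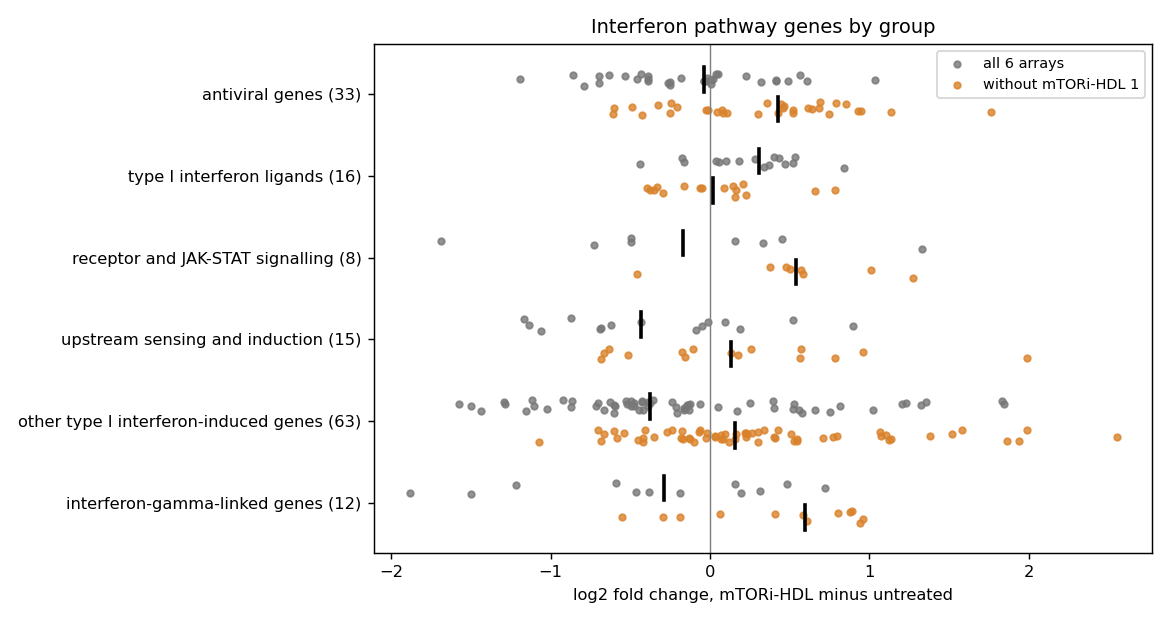
Log2 fold change, mTORi-HDL minus untreated, of each measured gene of 6 lists, over all 6 arrays (grey) and without mTORi-HDL 1 (orange), with a black bar at each median. Medians move right without mTORi-HDL 1 for the 33 antiviral genes (-0.04 to 0.43) and the interferon-gamma-linked genes (-0.29 to 0.60), and left for the ligands (0.31 to 0.02).

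Markers of the sorted cells and of other cells differed between the same groups. The macrophage markers were present, all 18 measured ones at or above the median gene. Lyz2 lay between 10.80 and 11.62 and Cd68 between 8.78 and 10.87 on all 6 arrays. Others read lower, such as Adgre1 between 4.93 and 8.72 and Mertk between 3.83 and 5.93. Of 18 measured of 19, 14 were higher with all 6 arrays used, at a median of 0.81, and 17 without mTORi-HDL 1, at a median of 1.02. Their summed linear level was 5350 on mTORi-HDL 1, 9940 to 13600 on mTORi-HDL 2 and 3 and 6290 to 7710 on the untreated arrays. Against the line on the other arrays their median distance was 0.98 on mTORi-HDL 1, 0.58 on mTORi-HDL 2 and 1.05 on mTORi-HDL 3. T cell markers were present too: Cd3e read 6.46 on mTORi-HDL 1, 9.67 and 9.63 on mTORi-HDL 2 and 3, and 10.37 to 10.85 on the untreated arrays. Of 16 measured T cell markers 0 were higher in treated grafts, with medians of -1.51 over all 6 arrays and -0.97 without mTORi-HDL 1. Their summed level was 2810 on mTORi-HDL 1, 7550 to 8910 on mTORi-HDL 2 and 3 and 14600 to 16700 on the untreated arrays. All 16 were at or above the median gene, and bright genes read low on mTORi-HDL 1. Against the line on the other arrays their median distance was -0.33 on mTORi-HDL 1, -0.82 on mTORi-HDL 2 and -0.72 on mTORi-HDL 3. Of 10 markers of plasmacytoid dendritic cells, a source of interferon-alpha, 5 were higher with all 6 arrays and 7 without mTORi-HDL 1, with a median of 0.07 in both cases. Their defining marker Siglech read 4.20, 4.53 and 4.86 on the treated and 4.04, 3.73 and 4.98 on the untreated arrays, with overlapping groups. Their summed level was 351 on mTORi-HDL 1, 875 to 1020 on mTORi-HDL 2 and 3 and 799 to 889 on the untreated arrays. That sum rests mostly on Lair1, above every untreated array on mTORi-HDL 2 and 3, and Ly6d, below them on all treated arrays. With all 6 arrays, groups did not overlap for 1 higher marker, Tcf4 (5.37% of all genes), and 2 lower, Spib and Ly6d (5.53%). Tcf4 and Spib had changes of 0.52 and -1.32 with all 6 arrays and 0.55 and -1.27 without mTORi-HDL 1. All of these but Siglech were named after their values were seen. Of 8 NK cell markers 0 were higher with all 6 arrays and 2 without mTORi-HDL 1, with medians of -0.59 and -0.31. Of 8 B cell markers 1 was higher and then 2, with medians of -0.81 and -0.46. Of 8 markers of conventional dendritic cells 5 were higher and then 6, with medians of 0.12 and 0.44, and of 9 cardiomyocyte markers 8 and then 6, with medians of 0.35 and 0.21. All 8 fibroblast markers were higher in treated grafts, with sums of 493, 652 to 682 and 181 to 224 in that order. Of 11 inflammatory monocyte markers 7 were higher in both fits, with medians of 0.05 with all 6 arrays and 0.19 without mTORi-HDL 1. Over all 6 arrays groups did not overlap for 1 that was higher (5.37% of all genes) and 2 that were lower (5.53%). Their defining marker Ly6c2 was among the lower, with changes of -1.64 and -0.66, and the 1 that was higher was Fn1, with 2.53 and 3.66. Without mTORi-HDL 1, 3 were higher at an unadjusted limma p under 0.05 (3.47% of all genes) and 1 was lower (3.51%). Ccr2, among these higher ones, had changes of -0.064 and 0.76. Fn1 and Ccr2 were named after their values were seen. Neutrophil, endothelial, and erythroid and platelet markers had medians of 0.15, 0.17 and 0.30 with all 6 arrays and -0.18, 0.02 and -0.16 without mTORi-HDL 1. Macrophages and T cells both express interferon-induced genes, and the part of the cell mixture in their levels was not tested.

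**Figure D5:**
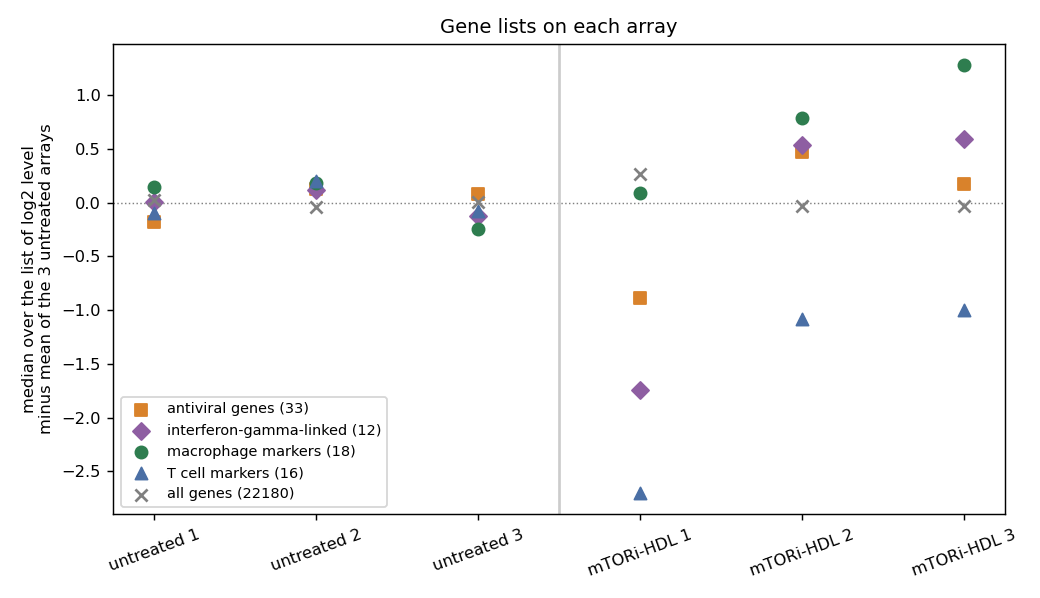
Median over each gene list of the log2 level minus the mean of the 3 untreated arrays, on each of the 6 arrays, for the 33 antiviral genes, 12 interferon-gamma-linked genes, 18 macrophage markers, 16 T cell markers and all 22180 genes. On mTORi-HDL 2 and 3 the macrophage markers (0.79 and 1.28) and the antiviral genes (0.47 and 0.17) lie above 0 and the T cell markers below (-1.08 on mTORi-HDL 2). On mTORi-HDL 1, where bright genes read low, the antiviral genes lie at -0.88 and the T cell markers at -2.70. The levels shown are not set against the line on the other arrays.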

How the data were processed

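RNA of 6 samples of sorted graft macrophages, 15 ng each, was amplified and put on 1 Affymetrix array each, per the labels' protocols. Values deposited by the authors are log2 expression from RMA in Affymetrix Expression Console (versions not named), per the submitters' processing notes, a method that removes background, evens out the distribution of single probes between arrays and then reduces probes to probe sets. The probe-set values still differed in spread between arrays. Sort markers, probe-set filters and the genome build are not given in the sources used here. The table held 41345 probe sets, 0 missing values and 0 identical pairs of arrays. By the platform annotation 23521 probe sets had 1 symbol, 1814 several and 16010 none, and only the first entered. Where a gene had several (1082 genes), its brightest was taken, for 22180 genes in all.

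All genes were fitted with limma 3.58.1 in R 4.3.3 (eBayes after lmFit on the 2 groups, two-sided, residual degrees of freedom 4, or 3 without mTORi-HDL 1), with Benjamini-Hochberg adjustment over all genes and no filter, a script that was tested on simulated data. With 1 array per sample, precision is set by how many arrays there are. The 36 genes, the other gene lists and the tests were chosen with earlier results of these data known, so a direction shared with those results is no independent evidence. All 36 genes were to be named, and of each other pathway list those with an unadjusted p under 0.05 over all 6 arrays and otherwise up to 4 with the smallest p. Lists are described by counts and medians, with no test of a list. Promoters are RefSeq's, build GRCm38.p6, for 27 of the 36 genes. Alternatives were each array left out, median centring, quantile and cyclic loess normalization, filters at the median gene and at the 25th percentile, a trended robust variance, weights per array, a replicate block, a mean over the probe sets of a gene, and quantile normalization or the median filter without mTORi-HDL 1.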

Additional observations from a re-analysis of the deposited data

How the results depend on the processing

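No setting named among the processing alternatives gave an interferon gene past an adjusted p of 0.05 (limma); the smallest adjusted p among them was 0.179, with array weights, which called 1 gene of 22180, no member. Direction depended on mTORi-HDL 1. With each array left out in turn, members lower in treated ranged from 10 to 24, members at an unadjusted p under 0.05 from 0 to 9, and the median change from -0.39 to 0.43, with the 10, the 9 and the 0.43 coming without mTORi-HDL 1. Array weights gave 11 members lower, 6 at an unadjusted p under 0.05 and a median of 0.29. Quantile normalization without mTORi-HDL 1 gave 9, 9 and 0.40, and the median filter without it 10, 6 and 0.43. Cyclic loess gave a median of 0.20 and 2 members at an unadjusted p under 0.05, and the median filter or a trended robust variance gave 0. Each array was also taken as its deviation from a line on the others, mTORi-HDL 1 never among them, a setting chosen after seeing the data. This gave 10 members lower and a median of 0.17. With mTORi-HDL 1 left out and a further array left out, chosen after seeing the data too, members higher at an unadjusted p under 0.05 ranged from 2 to 9 and the median from 0.17 to 0.49.

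Changes of sign were as follows, each with the log2 change found. With each array centred on its median, 5 of the 33 genes turned in sign: Ifih1 -0.10, Dhx58 -0.096, Ddx60 -0.085, Herc6 -0.055 and Rsad2 -0.068. Under quantile normalization, 7 of the 33 genes turned in sign: Ddx60 -0.016, Irf7 0.24, Rsad2 -0.084, Samd9l 0.31, Xaf1 0.15, Rtp4 0.086 and Trim30a 0.0073. Under cyclic loess, 9 of the 33 genes turned in sign: Ddx60 -0.090, Irf7 0.45, Ifit1 0.12, Isg15 0.23, Rsad2 -0.12, Samd9l 0.44, Xaf1 0.29, Rtp4 0.24 and Trim30a 0.20. With array weights, 11 of the 33 genes turned in sign: Ddx60 -0.0079, Irf7 0.36, Stat2 0.011, Ifit1 0.54, Mx1 0.34, Isg15 0.81, Parp14 0.59, Bst2 0.29, Eif2ak2 0.28, Xaf1 0.071 and Trim30a 0.29. With quantile normalization and mTORi-HDL 1 left out, 11 of the 33 genes turned in sign: Irf7 0.47, Stat2 0.10, Ifit1 0.65, Mx1 0.52, Isg15 0.93, Usp18 0.035, Parp14 0.70, Bst2 0.40, Eif2ak2 0.46, Xaf1 0.084 and Trim30a 0.39. With the median filter and mTORi-HDL 1 left out, 12 of the 31 genes it keeps turned in sign: Ddx60 -0.028, Irf7 0.47, Stat2 0.084, Ifit1 0.64, Mx1 0.52, Isg15 0.94, Usp18 0.045, Parp14 0.75, Bst2 0.44, Eif2ak2 0.43, Xaf1 0.11 and Trim30a 0.36. As deviations from the line, 10 of the 33 genes turned in sign: Zbp1 0.42, Irf7 0.40, Ifit1 0.15, Mx1 0.12, Isg15 0.33, Parp14 0.14, Samd9l 0.17, Xaf1 0.32, Rtp4 0.080 and Trim30a 0.23. The mean of probe sets turned Ifi35 to -0.21. With 1 array left out at a time, genes that turned in at least 1 case had these lowest and highest changes: Ifih1 -0.45 to 0.68, Dhx58 -0.38 to 0.34, Ddx60 -0.20 to 0.35, Irf7 -0.40 to 0.47, Stat2 -0.65 to 0.084, Ifit1 -0.76 to 0.64, Ifit2 -0.058 to 0.52, Oasl2 -0.047 to 1.13, Mx1 -0.56 to 0.52, Isg15 -0.93 to 0.94, Usp18 -1.02 to 0.045, Herc6 -0.29 to 0.61, Parp14 -1.22 to 0.75, Rsad2 -0.11 to 0.18, Bst2 -1.31 to 0.44, Eif2ak2 -1.51 to 0.43, Samd9l -0.43 to 0.21, Xaf1 -0.38 to 0.11, Rtp4 -0.45 to 0.010 and Trim30a -0.45 to 0.39. The cause was not tested.

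With the replicate block, 20 members were lower, the median was -0.04 and 0 had an unadjusted p under 0.05. The numbers were not found to pair the samples: same-numbered arrays correlated at 0.136, 0.135 and -0.024 in their deviations from the group means, and mTORi-HDL 3 correlated best with untreated 2, at 0.126. Signal over background could not be judged, since the deposited values hold no background estimate.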
